A study of Bos taurus with 30 samples.

Results

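The early response of the mature bovine corpus luteum to prostaglandin F2α (PGF2α) was measured by setting glands collected 4 h after the injection against glands collected at 0 h, all on day 11 of the estrous cycle. The arrays were chosen by the day and time in their labels, which gave 10 of the 30 arrays of the series, 5 at 4 h and 5 at 0 h, and all 24016 non-control probe sets were compared. The animals were Angus crossbred heifers, each gave 1 gland and 1 array, and the 0 h animals received saline. The dose, the route and the PGF2α product are not given in the sources used here. In the same design, further groups of 5 received PGF2α 24 h before collection on day 11, or were treated and collected on day 4 at 0, 4 and 24 h. There was no saline group at 4 h, so the effect of PGF2α and that of the hours after handling cannot be told apart. RNA came from pieces of whole gland, in which fewer cells of a type and less RNA per cell cannot be told apart.

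The corpus luteum forms from the ovulated follicle and secretes progesterone, the hormone that maintains pregnancy. PGF2α from the uterus ends its life: it binds the receptor PTGFR on luteal cells, which couples through Gq proteins to phospholipase C, calcium release and protein kinase C, and progesterone output falls before the tissue is taken apart by cell death and invading leukocytes. In cattle the mature gland regresses after a PGF2α injection, while the newly formed gland survives it, and the study compared these stages.

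The tissue label held on its markers. The 7 markers of steroidogenic luteal cells (STAR, CYP11A1, HSD3B1, FDX1, LHCGR, PTGFR and OXT) averaged 11.999 to 12.251 log2 units on the 4 h arrays and 12.40 to 12.58 on the 0 h arrays, while 2 of 3 red cell markers and both measured B cell markers (MS4A1 and CD79A) were near background at both times. Signals below 4.48, the 30th percentile of the 0 h means, are called near background here. Arrays of one group correlated at 0.978 to 0.992 across probe sets, arrays of different groups at 0.967 to 0.981, and the median SD between arrays was 0.216 at 4 h and 0.196 at 0 h. Replicate 1 at 4 h stood apart. Its 3′ minus 5′ difference for the EF1A control was -1.40, against -2.28 or lower on the other 4 h arrays, and it had the lowest array weight of the 10, 0.318. The group difference in 3′ minus 5′ signal had exact two-sided permutation p-values of 0.286 for actin, 0.976 for GAPDH and 1.0 for EF1A, where 0.0079 is the smallest that 5 against 5 arrays can give. Without replicate 1 at 4 h, 4002 probe sets passed the test below, against 4409 with it.

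By 4 h the gland had changed broadly, with few falls as large as the rises. In limma's moderated test, with Benjamini-Hochberg adjustment across every probe set tested, 4409 of 24016 probe sets (18.4%) differed at an adjusted p under 0.05. Of these, 1927 (8.02% of all) were higher and 2482 (10.3%) lower at 4 h. Among 9162 named genes, 921 (10.1%) rose and 1202 (13.1%) fell. Of these, 262 genes (2.86%) rose at least 2-fold and 55 (0.600%) fell at least 2-fold, where 1 log2 unit is a 2-fold difference. The median log2 difference over all genes was -0.04, and the middle 90% of genes lay between -0.55 and 0.72. The 5 values at 4 h and the 5 at 0 h did not overlap for 577 genes that were higher (6.30%) and 619 that were lower (6.76%). A fit to these 10 arrays alone called 2520 probe sets. Counts within the gene lists below are to be read against the 10.1% of genes that rose and the 13.1% that fell.

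**Figure D1:**
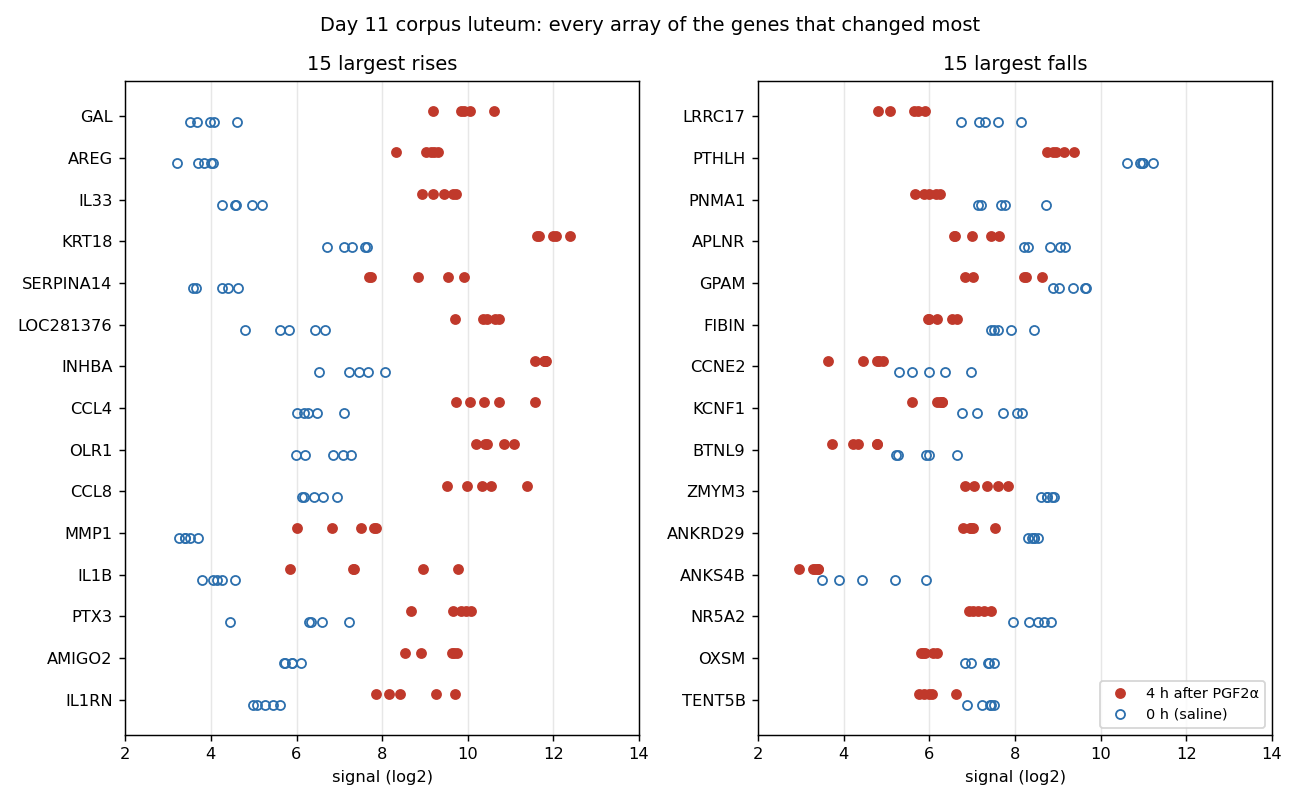
Signal (log2, x axis) on every array for the 15 genes with the largest rises (left) and the 15 with the largest falls (right) among genes past the test whose groups did not overlap. Filled points are the 5 glands at 4 h and open points the 5 glands at 0 h; the rises reach 5.95 log2 units in GAL, the falls 1.95 in LRRC17.

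The largest rise belonged to a neuropeptide gene. GAL, which encodes galanin, read 10.62, 9.20, 10.05, 9.84 and 9.91 log2 units at 4 h and 3.98, 3.68, 3.51, 4.61 and 4.06 at 0 h. All 4 h glands stood far above all 0 h glands, whose signals were mostly near background. The difference was 5.95 ± 0.34 log2 units (± SE), or 61.9-fold, with an adjusted p of 6.3e-13.

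AREG, the EGF receptor ligand amphiregulin, read 9.21, 9.03, 9.31, 8.32 and 9.14 at 4 h and 3.71, 3.84, 4.05, 3.20 and 4.01 at 0 h. The groups again did not overlap, and the 4 h gland with the lowest signal, replicate 4, was still more than 4 log2 units above the highest 0 h gland. AREG rose by 5.24 ± 0.31 log2 units (adjusted p = 9.6e-13). Of the 11 measured EGF receptor ligands and receptors, AREG and NRG1 were the 2 that rose and none fell (0 also at an unadjusted p under 0.05). NRG1, the ligand neuregulin 1, averaged 5.004 ± 0.33 at 4 h and 3.33 ± 0.32 (SD, n = 5 each) at 0 h, a low signal at both times.

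INHBA encodes the activin A subunit, a TGF-beta family hormone. It read 11.56, 11.81, 11.83, 11.80 and 11.78 at 4 h and 6.52, 7.23, 7.47, 8.08 and 7.67 at 0 h. The 4 h glands were nearly alike while the 0 h glands spread over more than 1 log2 unit below them, and the rise was 4.36 ± 0.34 (adjusted p = 2.3e-10). FST, which encodes the activin-binding protein follistatin, averaged 10.13 ± 0.24 at 4 h and 10.39 ± 0.46 at 0 h and did not pass the test (adjusted p = 0.6).

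Among 29 measured luteal peptides and binding proteins, 8 rose and 1 fell, with a median of 0.02, while the background over all genes was 10.1% higher and 13.1% lower. EDN1, the vasoconstrictor endothelin 1, averaged 7.57 ± 0.37 at 4 h and 5.58 ± 0.40 at 0 h, and IGFBP3, which binds insulin-like growth factors, averaged 11.37 ± 0.18 at 4 h and 9.84 ± 0.61 at 0 h. The member that fell was PTHLH, the parathyroid hormone-like hormone, and 3 fell without 0 h replicate 1. PTHLH read 9.15, 9.38, 8.88, 8.96 and 8.74 at 4 h and 10.61, 10.99, 10.97, 10.91 and 11.21 at 0 h. Every 4 h gland was lower than every 0 h gland, and PTHLH fell by 1.92 log2 units (SE 0.24, adjusted p = 1.1e-06), the second largest fall among non-overlapping genes.

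Around activin, the wider TGF-beta, activin and BMP pathway had 5 of 20 measured members higher and 1 lower. Of all genes, 10.1% were higher and 13.1% lower. BMP2, a bone morphogenetic protein ligand, read 7.06, 6.82, 6.77, 6.18 and 7.98 at 4 h and 4.45, 4.996, 4.45, 4.16 and 4.06 at 0 h, with no overlap and a rise of 2.54 ± 0.37 (adjusted p = 1.1e-05). The signal transducer SMAD3 rose by 1.504 ± 0.17 and the SMAD corepressor TGIF1 by 1.26 ± 0.16. The BMP receptor BMPR1A fell by 0.92 (SE 0.12), although only 1 of its 2 probe sets passed the test.

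The receptor of the injected hormone was itself lower. PTGFR read 10.44, 10.96, 11.14, 11.02 and 11.14 at 4 h and 11.41, 11.28, 11.48, 11.54 and 11.62 at 0 h. All 4 h values were below all 0 h values, with replicate 1 at 4 h the lowest. The fall was 0.52 log2 units (SE 0.14, adjusted p = 0.0091), in all 3 of its probe sets, and with array weights its adjusted p was 0.0534.

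Of 25 measured genes of PGF2α receptor, Gq and calcium signalling, 4 rose and 3 fell, against 10.1% and 13.1% of all genes. The median was -0.08, and 3 rose and 2 fell in the fit to the 10 arrays alone. RCAN1, a calcineurin inhibitor that calcium signalling through calcineurin is known to induce, averaged 10.77 ± 0.25 at 4 h and 9.23 ± 0.71 at 0 h. PRKCD, protein kinase C delta, rose by 1.27 ± 0.16, and NFATC3, a calcineurin-activated transcription factor, by 1.10 ± 0.12; in each, 1 of 2 probe sets passed. CAMK2G, a calcium/calmodulin-dependent kinase subunit, fell by 0.75 (SE 0.13). Downstream, in the list of MAP kinase feedback genes, 4 of 12 rose and 1 fell. They included TRIB1, a pseudokinase that restrains MAP kinase kinases, at 9.31 ± 0.46 at 4 h and 7.44 ± 0.29 at 0 h. MAP2K3, the activator of p38 kinases, had nearly the same signal in all 4 h glands, 10.14 ± 0.03, against 9.27 ± 0.26 at 0 h (adjusted p = 3.3e-07).

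Immediate-early transcription factors were divided. Of 29 measured, 12 rose and 1 fell, with a median of 0.59, which was 0.382 without 0 h replicate 2. FOSB, a partner in the AP-1 dimer, read 8.34, 9.24, 8.46, 8.24 and 8.47 at 4 h and 5.72, 4.56, 4.85, 6.25 and 5.15 at 0 h, and ATF3, a stress-induced repressor, read 9.69, 10.11, 10.10, 10.61 and 9.98 at 4 h and 7.43, 5.87, 6.66, 7.34 and 6.57 at 0 h. Both separated the groups completely, FOSB rising by 3.24 ± 0.25 and ATF3 by 3.32 ± 0.30 log2 units (adjusted p = 1.2e-10 and 4e-09).

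FOS was less clear. It read 10.09, 11.05, 10.53, 10.84 and 10.24 at 4 h and 9.83, 8.58, 8.30, 10.65 and 8.14 at 0 h. The groups overlapped, since 0 h replicate 4 lay within the 4 h range, and the rise of 1.45 ± 0.41 (adjusted p = 0.013) had an adjusted p of 0.0508 without 0 h replicate 5. JUN differed by 0.10 ± 0.18 (adjusted p = 0.78), EGR1 by 0.51 ± 0.30 (adjusted p = 0.27) and NR4A1 by 1.34 ± 0.49 (adjusted p = 0.055), none past the test. NR4A1 ranged from 6.99 to 10.67 among the 0 h glands. It passed the test without 0 h replicate 1, without 0 h replicate 4, without 4 h replicate 1 and in 3 further alternatives, its adjusted p running from 0.0039 to 0.25 over all alternatives.

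Other members that rose were FOSL1 (1.65 ± 0.20), the transcriptional repressor BHLHE40 (1.96 ± 0.34, 1 of 2 probe sets) and the survival-linked IER3, at 11.38 ± 0.29 at 4 h and 9.30 ± 0.72 at 0 h. ID2, which keeps helix-loop-helix factors off DNA, was the 1 member that fell, in both of its probe sets, by 1.02 (SE 0.18, adjusted p = 0.00014).

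Most genes of progesterone synthesis did not pass the test, and 3 of those that fell encode transcription factors. Of 17 measured genes, 4 fell and none rose (1 rose at an unadjusted p under 0.05), with a median of -0.12. NR5A2 (LRH-1), a nuclear receptor that drives steroidogenic genes, read 6.92, 7.02, 7.43, 7.14 and 7.28 at 4 h and 7.94, 8.33, 8.68, 8.53 and 8.83 at 0 h. All 4 h values were lower, and NR5A2 fell by 1.31 log2 units (SE 0.28, adjusted p = 0.0014). NR5A1 (SF-1), its close relative, fell by 0.85 (SE 0.18) in 3 of 4 probe sets, with overlapping groups. NR0B1 (DAX-1), a repressor of both, averaged 5.27 ± 0.21 at 4 h and 6.28 ± 0.33 at 0 h (adjusted p = 0.00027, 1 of 2 probe sets).

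STAR, which carries cholesterol into mitochondria, read 13.41, 13.41, 13.22, 13.34 and 13.36 at 4 h and 13.74, 13.48, 13.54, 13.60 and 13.66 at 0 h. HSD3B1, the enzyme of the last step to progesterone, read 13.31, 13.50, 13.38, 13.38 and 13.41 at 4 h and 13.81, 13.67, 13.66, 13.66 and 13.75 at 0 h. In both, every 4 h gland was below every 0 h gland, but the differences of -0.25 ± 0.21 and -0.31 ± 0.19 did not pass the test over 30 arrays (adjusted p = 0.47 and 0.29). That test uses 1 spread per probe set, shared by all 6 groups. On day 11 the SD of STAR was 0.828 at 24 h, 0.078 at 4 h and 0.101 at 0 h. The SD of HSD3B1 was 0.757 at 24 h, 0.071 at 4 h and 0.067 at 0 h. In the fit to the 10 arrays alone, HSD3B1 had an adjusted p of 0.0374. The adjusted p of STAR ran from 0.103 to 0.58 over all alternatives. CYP11A1, the side-chain cleavage enzyme, averaged 13.32 ± 0.13 at 4 h and 13.47 ± 0.07 at 0 h, and the lipoprotein receptor SCARB1 13.34 ± 0.07 at 4 h and 13.45 ± 0.13 at 0 h. Neither passed (adjusted p = 0.15 and 0.39), and all of these signals lay in the top part of the array's range, which ended at 14.35. The hormone gene OXT, oxytocin, averaged 13.66 ± 0.12 at 4 h and 13.64 ± 0.10 at 0 h. Of 27 genes of cholesterol synthesis, uptake and efflux, 2 rose and 1 fell, with a median of -0.02. In limma's fit to the 10 arrays alone 0 passed, with 4 higher and 3 lower at an unadjusted p under 0.05. Without 0 h replicate 2 or 0 h replicate 3, 0 rose, with 3 and 4 higher at an unadjusted p under 0.05.

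LHCGR, the receptor for luteinizing hormone that sustains the gland, read 6.39, 6.69, 7.34, 7.26 and 7.38 at 4 h and 7.48, 7.69, 7.62, 8.92 and 7.88 at 0 h. The groups did not overlap, and the 0 h spread came largely from replicate 4. LHCGR fell by 0.90 (SE 0.29, adjusted p = 0.026), in 1 of 3 probe sets. Its adjusted p was 0.107 without 0 h replicate 4, 0.0860 without 4 h replicate 1 and 0.0602 without 4 h replicate 2. It was also 0.0964 with array weights, 0.0547 in the fit to the 10 arrays alone and 0.0994 for the mean of its probe sets. Among 15 measured cAMP and protein kinase A genes, PDE8A, a phosphodiesterase that breaks down cAMP, averaged 9.45 ± 0.29 at 4 h and 8.22 ± 0.07 at 0 h and rose by 1.23 ± 0.11. In that list 2 genes rose and 2 fell, near the 10.1% and 13.1% of all genes.

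**Figure D2:**
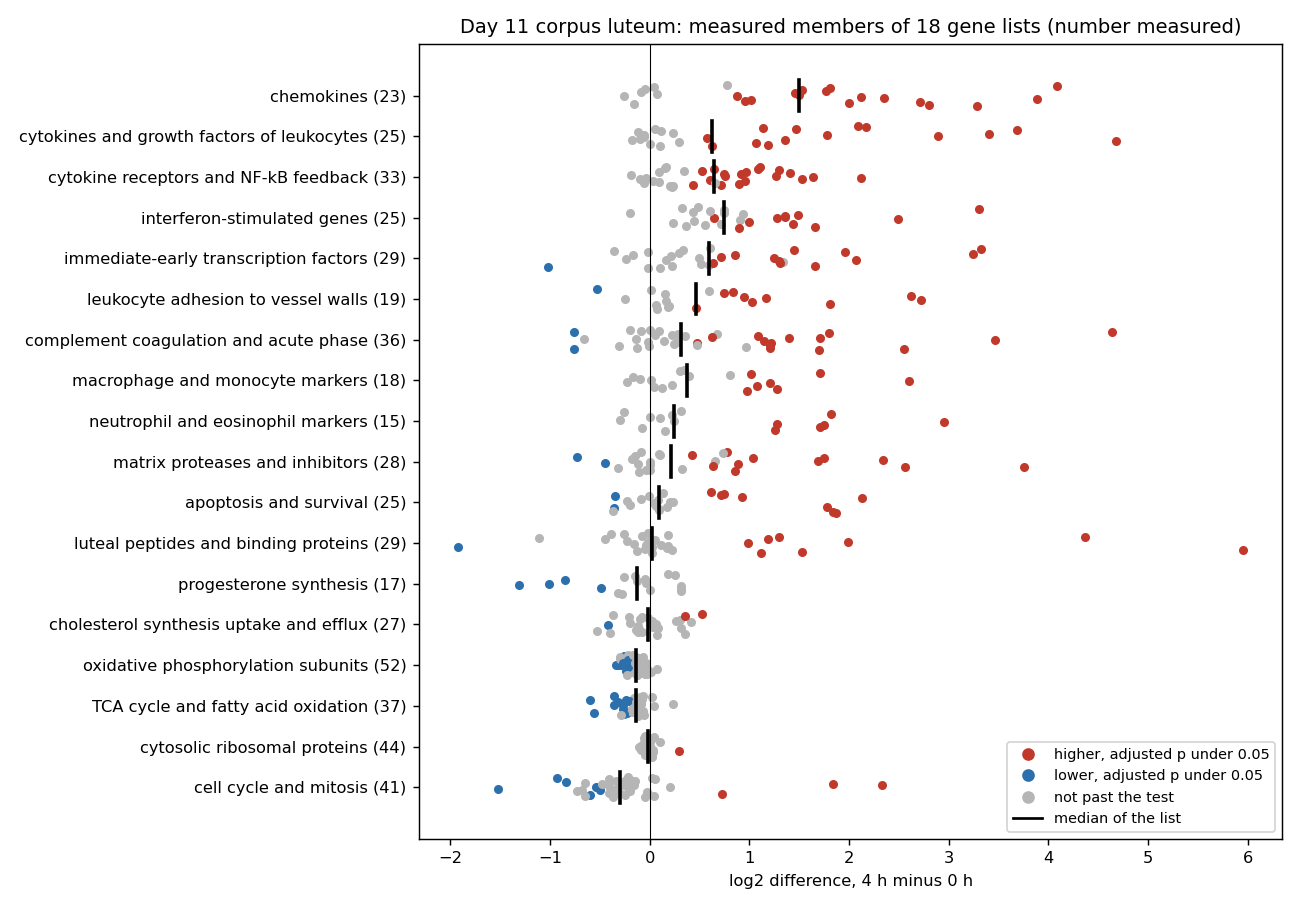
Log2 difference, 4 h minus 0 h (x axis), of every measured member of 18 gene lists, with the number measured in parentheses. Red points passed the test higher at 4 h, blue points lower, grey points did not pass, and the black bar is the list's median: chemokines have the median farthest from 0, at 1.496, and cytosolic ribosomal proteins stay close to 0.

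Chemokine genes were the list with the largest median shift of the 49 examined. Of 23 measured, 16 rose and none fell, with a median of 1.496 against -0.04 over all genes. In this list and in the cytokine, NF-kB, interferon and leukocyte lists below, limma gave 0 falls also at an unadjusted p under 0.05, unless stated. CCL2, which attracts monocytes, read 11.90, 12.56, 11.71, 11.93 and 10.80 at 4 h and 9.27, 8.86, 8.91, 9.87 and 8.003 at 0 h, in both of 2 probe sets. CCL4, another monocyte attractant, read 10.74, 11.58, 10.38, 10.04 and 9.72 at 4 h and 6.02, 6.47, 7.10, 6.26 and 6.18 at 0 h. The groups did not overlap for either gene, and the rises were 2.80 ± 0.32 (adjusted p = 2.5e-07) and 4.08 ± 0.41 (adjusted p = 2.4e-08).

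CCL8 was similar, at 10.35 ± 0.69 at 4 h and 6.46 ± 0.33 at 0 h. CXCL8 (interleukin 8), the main neutrophil attractant, read 8.69, 9.20, 7.70, 6.03 and 7.32 at 4 h and 4.03, 3.99, 4.54, 4.08 and 5.92 at 0 h. The 4 h glands were spread over more than 3 log2 units and 0 h replicate 5 nearly reached the lowest of them, but the groups stayed apart and the rise was 3.28 ± 0.58 (adjusted p = 0.00016). XCL1, the lymphocyte attractant lymphotactin, had high signals at both times, 12.29 ± 0.31 at 4 h and 10.49 ± 1.15 at 0 h, and the groups overlapped.

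Of 25 measured cytokines and growth factors of leukocytes, 14 rose and none fell, with a median of 0.62. IL33, an alarm cytokine of the interleukin 1 family, read 8.93, 9.18, 9.72, 9.44 and 9.66 at 4 h and 4.25, 4.56, 4.95, 5.18 and 4.58 at 0 h. The groups lay more than 3 log2 units apart, and the rise was 4.68 ± 0.23 (adjusted p = 2.5e-14), in 2 of 3 probe sets. IL1B, interleukin 1 beta, read 8.96, 9.76, 7.31, 5.84 and 7.35 at 4 h and 4.15, 4.06, 4.26, 3.79 and 4.56 at 0 h. Here the 4 h glands differed by almost 4 log2 units, from replicate 2 down to replicate 4, but all lay above the 0 h glands, and the rise was 3.68 ± 0.55 (adjusted p = 1.7e-05). IL1RN, which blocks the interleukin 1 receptor, rose with it, to 8.68 ± 0.77 at 4 h against 5.28 ± 0.27 at 0 h.

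CSF1, the growth factor of macrophages, averaged 9.48 ± 0.33 at 4 h and 7.32 ± 0.25 at 0 h (adjusted p = 1.6e-11), in 1 of 2 probe sets. SPP1 (osteopontin), a secreted adhesion protein of macrophages and matrix, averaged 11.93 ± 0.48 at 4 h and 9.04 ± 0.80 at 0 h. Cytokine receptors and the NF-kB feedback loop had 19 of 33 measured genes higher and none lower, with a median of 0.65. They included the interleukin 4 receptor IL4R (2.12 ± 0.19), the TWEAK receptor TNFRSF12A (1.64 ± 0.14), the NF-kB subunit NFKB1 (1.52 ± 0.19) and the inhibitor TNIP1 (1.30 ± 0.14, all 3 probe sets), none of which overlapped between groups. NFKBIA, the inhibitor that holds NF-kB in the cytoplasm, rose by 1.41 ± 0.37 with overlapping groups. TNFRSF6B, a secreted decoy receptor that binds FAS ligand, was outside that list. It read 8.52, 8.25, 8.02, 8.08 and 8.12 at 4 h and 4.28, 4.62, 5.11, 5.24 and 5.45 at 0 h, a rise of 3.26 ± 0.22 (adjusted p = 1.1e-11).

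In JAK-STAT signalling 5 of 13 measured genes rose and none fell (1 at an unadjusted p under 0.05), and 3 rose in the fit to the 10 arrays alone. PIM1, a survival kinase and STAT target, rose by 1.73 ± 0.23, the feedback inhibitor SOCS3 by 1.09 ± 0.30 in 1 of 2 probe sets, and the kinase JAK1 by 0.41 ± 0.09. SPSB1, a SOCS-box adaptor of ubiquitin ligases, was outside that list and averaged 11.25 ± 0.12 at 4 h and 9.03 ± 0.50 at 0 h (adjusted p = 6.6e-09).

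In the marker panels, neutrophil genes rose with the chemokines and cytokines, while most markers of other leukocytes did not pass the test. The part of leukocytes in the chemokine and cytokine rises was not tested. The 3 measured neutrophil markers of 5 listed (S100A8, S100A9 and S100A12) all rose, and their mean signal per array ranged from 7.46 to 10.11 at 4 h and from 5.91 to 6.72 at 0 h. The 6 measured macrophage markers of 7 listed averaged 8.51 to 10.36 per array at 4 h and 8.37 to 9.12 at 0 h. The median array was at 9.04 at 4 h and 9.06 at 0 h, and CD14 alone of these markers passed the test. Of the 6 measured T and NK cell markers of 7 listed, 0 passed the test in either direction. In the longer list of T and NK cell genes 1 of 22 rose, and 6 at an unadjusted p under 0.05. GZMB, the killer-cell protease granzyme B, was near background at both times.

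S100A12, a calcium-binding protein of granulocytes, read 9.93, 8.14, 8.05, 8.02 and 7.27 at 4 h and 4.79, 5.81, 5.26, 5.28 and 5.53 at 0 h. S100A8, its partner family member, read 11.47, 9.23, 8.57, 9.45 and 8.70 at 4 h and 7.70, 7.89, 7.80, 6.59 and 8.37 at 0 h. Both were highest in 4 h replicate 1, the array that stood apart. The rise of S100A12, 2.95 ± 0.46 (adjusted p = 2.9e-05), was 2.54 without that gland (adjusted p = 0.00014), while that of S100A8, 1.82 ± 0.51 (adjusted p = 0.011), was 1.32 without it and did not pass (adjusted p = 0.0515). In the longer list of neutrophil and eosinophil genes 6 of 15 rose and none fell. MMP9, a gelatinase that neutrophils store, averaged 7.72 ± 1.11 at 4 h and 5.98 ± 0.66 at 0 h.

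In the list of macrophage and monocyte genes 7 of 18 rose and none fell, and the median was 0.37. Without 4 h replicate 4, 5 rose and the median was 0.046, without 0 h replicate 1 it was 0.226, and without 4 h replicate 5 it was 0.611. The median per array ran from -0.13 to 1.58 relative to the 0 h means, with 4 h replicate 4 the highest. CD83, an activation marker of antigen-presenting cells, averaged 9.83 ± 0.69 at 4 h and 7.23 ± 0.80 at 0 h, and CD14, the endotoxin co-receptor, 9.61 ± 0.46 at 4 h and 8.34 ± 0.23 at 0 h. The receptor TREM1 rose by 1.71 ± 0.47, and the signalling chains FCER1G and TYROBP rose by 1.21 ± 0.27 and 1.08 ± 0.29.

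Interferon-stimulated genes were higher on average, but this leaned on single glands. Of 25 measured, 11 rose and none fell, with a median of 0.75. RSAD2 (viperin), an antiviral enzyme, read 8.49, 9.31, 8.09, 11.37 and 10.52 at 4 h and 6.50, 7.37, 6.21, 6.29 and 4.87 at 0 h. ISG15, a ubiquitin-like protein, read 10.85, 10.85, 10.005, 13.24 and 11.66 at 4 h and 8.31, 10.12, 8.72, 9.19 and 7.77 at 0 h. Replicates 4 and 5 had the highest signals at 4 h in both genes, and for ISG15 the lowest 4 h gland was below the highest 0 h gland.

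The median of the list per array was 2.50 in replicate 4 and 0.88 in replicate 5 at 4 h, and between 0.10 and 0.59 in the other 4 h glands. Without replicate 4, 7 of the 25 genes passed and the median was 0.41, and in the fit to the 10 arrays alone 5 passed. RSAD2 rose by 3.31 ± 0.53 (adjusted p = 4e-05) with all arrays and by 2.85 without replicate 4 (adjusted p = 0.00021). IFI16, a sensor of foreign DNA, averaged 8.45 ± 0.66 at 4 h and 6.96 ± 0.37 at 0 h without overlap, and MX2, an antiviral GTPase, 5.19 ± 1.58 at 4 h and 3.54 ± 0.28 at 0 h with overlap. In the fit to the 10 arrays alone the adjusted p of MX2 was 0.0964.

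**Figure D3:**
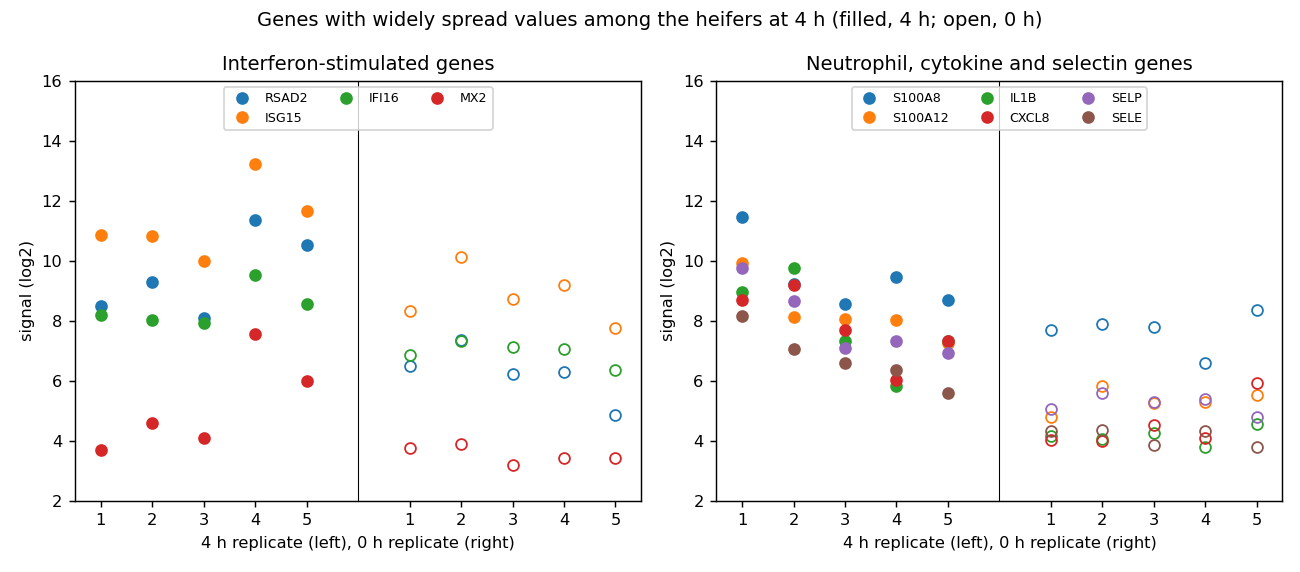
Signal (log2, y axis) by replicate number (x axis) for 4 interferon-stimulated genes (left) and 6 neutrophil, cytokine and selectin genes (right). Filled points are glands at 4 h and open points glands at 0 h: RSAD2 and ISG15 are highest in replicate 4 at 4 h, S100A8 and S100A12 in replicate 1 at 4 h.

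Genes for leukocyte capture at the vessel wall included both selectins of the endothelium among their rises. Of 19 measured adhesion genes, 9 rose and 1 fell, with a median of 0.46. SELE (E-selectin), which slows passing leukocytes on activated endothelium, read 8.17, 7.07, 6.60, 6.36 and 5.59 at 4 h and 4.33, 4.37, 3.84, 4.34 and 3.78 at 0 h. SELP (P-selectin), its relative on endothelium and platelets, read 9.76, 8.66, 7.10, 7.32 and 6.94 at 4 h and 5.07, 5.61, 5.30, 5.38 and 4.81 at 0 h. The 4 h values lay above all 0 h values in both, highest in replicate 1, and the rises were 2.63 ± 0.31 (adjusted p = 3.3e-07) and 2.72 ± 0.38 (adjusted p = 6.5e-06). Without that replicate the rise of SELP was 2.27 (adjusted p = 9.7e-06). ICAM1, which leukocyte integrins bind, rose by 1.16 ± 0.24, the hyaluronan receptor CD44 by 1.81 ± 0.22, and the leukocyte integrin chain ITGAL by 1.03 ± 0.28 in 1 of 2 probe sets.

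Endothelial genes did not move together. Of 22 measured, 6 rose and 2 fell, against 10.1% and 13.1% of all genes, with a median of 0.05. In the fit to the 10 arrays alone 3 rose. NOS3, endothelial nitric oxide synthase, averaged 7.89 ± 0.54 at 4 h and 6.76 ± 0.35 at 0 h, and the junction protein PECAM1 9.21 ± 0.38 at 4 h and 8.38 ± 0.19 at 0 h. APLNR, the apelin receptor, read 6.57, 6.997, 7.43, 7.62 and 6.60 at 4 h and 8.20, 8.82, 9.05, 9.15 and 8.29 at 0 h. The groups did not overlap, and APLNR fell by 1.66 log2 units (SE 0.24, adjusted p = 8e-06) in both probe sets. The surface sialomucin EMCN fell by 0.62 (SE 0.10) in both probe sets.

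Growth and inhibitory factors of vessels also passed the test in both directions. Of 31 measured angiogenic and anti-angiogenic genes, 6 rose and 4 fell, against 10.1% and 13.1% of all genes. In the fit to the 10 arrays alone 3 rose. The falls, and the rises in that fit, were near the shares of all genes. FGF2, basic fibroblast growth factor, read 8.17, 5.42, 7.79, 7.46 and 7.94 at 4 h and 5.28, 4.22, 5.35, 5.38 and 4.86 at 0 h. The 4 h values were above all 0 h values, but replicate 2 at 4 h came within 0.1 of the highest 0 h gland. The rise was 2.34 ± 0.36 (adjusted p = 2.3e-05).

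VEGFA, the main endothelial growth factor of the gland, read 10.42, 10.42, 10.80, 10.32 and 10.43 at 4 h and 11.35, 11.13, 11.36, 11.07 and 11.37 at 0 h. All 4 h glands were lower, and VEGFA fell by 0.78 (SE 0.18, adjusted p = 0.0028). That fall was in 1 of its 2 probe sets, and the mean of both fell by 0.41 with an adjusted p of 0.0857. FGFR2, a fibroblast growth factor receptor, fell by 1.06 (SE 0.19) in 1 of 5 probe sets. The thrombospondins, which inhibit vessel growth, were higher: THBS1 averaged 12.35 ± 0.28 at 4 h and 11.10 ± 0.41 at 0 h in 3 of 6 probe sets, and THBS2 11.17 ± 0.30 at 4 h and 9.94 ± 0.31 at 0 h. Of 21 vasoactive genes 4 rose and 2 fell, against 10.1% and 13.1% of all genes. AGTR1, the angiotensin II receptor, fell by 1.07 (SE 0.26), and RAMP3, which turns a calcitonin-type receptor into an adrenomedullin receptor, rose by 0.70 ± 0.11.

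Complement, coagulation and acute phase genes had 14 of 36 measured members higher and 2 lower, with a median of 0.32. SERPINA14, the uterine serpin of ruminants, read 7.70, 7.74, 9.54, 9.90 and 8.83 at 4 h and 3.65, 4.64, 4.41, 3.58 and 4.26 at 0 h. The 0 h glands were mostly near background and the groups lay more than 3 log2 units apart. SERPINA14 rose by 4.64 ± 0.46 (adjusted p = 1.8e-08) in both probe sets. F3 (tissue factor), which starts coagulation, averaged 7.79 ± 1.00 at 4 h and 5.24 ± 0.41 at 0 h, and PTX3, a pattern-binding pentraxin, 9.64 ± 0.57 at 4 h and 6.18 ± 1.04 at 0 h. The acute phase gene SAA3 rose by 1.801 ± 0.43 and the protease inhibitor TFPI2 by 1.71 ± 0.20. OLR1, a receptor for oxidized lipoprotein, was outside that list and averaged 10.59 ± 0.36 at 4 h and 6.68 ± 0.56 at 0 h (adjusted p = 9.9e-10).

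Of 28 matrix proteases and inhibitors, 11 rose and 2 fell, with a median of 0.21. MMP1, interstitial collagenase, read 6.84, 6.02, 7.81, 7.85 and 7.50 at 4 h and 3.52, 3.40, 3.25, 3.38 and 3.69 at 0 h. The 0 h glands were all near background, and the rise was 3.76 ± 0.38 (adjusted p = 2.7e-08). PLAUR, the urokinase receptor, averaged 10.25 ± 0.21 at 4 h and 7.69 ± 0.30 at 0 h (adjusted p = 5.3e-12), and the collagen crosslinker LOXL4 9.26 ± 1.20 at 4 h and 6.92 ± 0.32 at 0 h. Inhibitors rose beside the proteases: TIMP3 by 1.69 ± 0.14 and TIMP1, already near the top of the signal range, by 0.42 ± 0.07.

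KRT18, a keratin of simple epithelia, was among the 4 largest rises. It read 11.66, 12.39, 11.996, 11.61 and 12.05 at 4 h and 7.30, 7.65, 7.11, 6.72 and 7.59 at 0 h. No 4 h gland came within 3 log2 units of a 0 h gland, and the difference was 4.67 ± 0.29, or 25.4-fold (adjusted p = 1.7e-12). In the list of epithelial keratins and junctions 6 of 22 genes rose and 1 fell, against 10.1% and 13.1% of all genes. The tight junction gene CLDN1 rose by 1.82 ± 0.29 and CDH1 (E-cadherin) by 1.60 ± 0.24, the second in 1 of 2 probe sets.

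Actin and contractile genes had 5 of 33 members higher and 2 lower, against 10.1% and 13.1% of all genes. The number that rose was 3 in the fit to the 10 arrays alone, and 3 without 0 h replicate 3, 4 h replicate 2 or 4 h replicate 4. CNN1, calponin of smooth muscle, read 9.41, 9.62, 9.79, 10.14 and 9.88 at 4 h and 6.15, 6.72, 7.25, 8.19 and 7.17 at 0 h, a rise of 2.67 ± 0.28 without overlap (adjusted p = 5.7e-08). The mean of the 4 smooth muscle and pericyte markers ranged from 8.20 to 9.36 per array at 4 h and from 8.48 to 9.21 at 0 h. The tropomyosin TPM4 rose by 0.77 ± 0.09 and the small GTPase RHOB by 0.54 ± 0.13 in 1 of 3 probe sets. AMIGO2, a cell adhesion protein outside the actin and contractile list, rose by 3.43 ± 0.25.

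Genes that restrain cell death were among those that rose. Of 25 measured apoptosis and survival genes, 8 rose and 2 fell, with a median of 0.10. CFLAR, which blocks caspase 8 at death receptors, read 9.56, 9.32, 9.81, 9.63 and 9.79 at 4 h and 7.17, 8.06, 7.55, 7.61 and 7.08 at 0 h. The groups were apart in all 3 probe sets, with a rise of 2.13 ± 0.18 (adjusted p = 9.5e-10). BCL2A1, a survival member of the BCL2 family, rose by 1.87 ± 0.32, and BIRC3, an inhibitor of apoptosis and NF-kB target, by 1.78 ± 0.29. CDKN1A (p21), which halts the cell cycle, averaged 10.99 ± 0.18 at 4 h and 9.15 ± 0.27 at 0 h (adjusted p = 1.6e-10).

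In the list of cell cycle and mitosis genes 3 of 41 rose and 6 fell, with a median of -0.29, and these counts are near the 10.1% and 13.1% of all genes. Without 0 h replicate 2, 3 fell and the median was -0.072, and with array weights 3 fell. PLK3, a stress-response polo-like kinase, rose by 2.33 ± 0.21 (adjusted p = 3.8e-09). The cyclins CCNE2, CCND1 and CCND3 fell by 1.52, 0.93 and 0.84 log2 units (SE 0.30, 0.16 and 0.15), with overlapping groups for both D cyclins.

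Among oxidative stress and metal-binding genes 6 of 35 rose and 1 fell, against 10.1% and 13.1% of all genes. Without 4 h replicate 1, 3 fell. Metallothioneins, small proteins that bind zinc and copper, were among the genes that rose. MT2A read 11.19, 10.80, 11.87, 10.68 and 10.73 at 4 h and 8.54, 8.69, 8.86, 9.15 and 9.27 at 0 h, and MT1A averaged 11.76 ± 0.78 at 4 h and 9.73 ± 0.89 at 0 h. The groups did not overlap for either (adjusted p = 8.8e-07 and 0.00037). TXNRD1, thioredoxin reductase, rose by 1.21 ± 0.16, and SRXN1, which repairs peroxiredoxins, by 1.002 ± 0.19. HMOX1, heme oxygenase 1, averaged 9.09 ± 0.46 at 4 h and 9.06 ± 0.32 at 0 h (adjusted p = 0.96). Of 31 chaperone and unfolded protein genes, 10 rose and 2 fell (4 without 0 h replicate 2). Those that rose included HSPB8 (0.99 ± 0.19), DNAJA1 (0.81 ± 0.13) and the endoplasmic reticulum chaperone DNAJB9 (0.65 ± 0.18).

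Lipid storage genes passed the test in both directions. Of 24 measured genes of fatty acid release and lipid droplets, 6 rose and 3 fell, against 10.1% and 13.1% of all genes. In the fit to the 10 arrays alone 3 rose and 3 fell, near those shares. PLIN2, the main coat protein of lipid droplets in luteal cells, read 13.57, 13.90, 13.86, 13.67 and 13.83 at 4 h and 12.30, 12.001, 12.06, 12.44 and 12.42 at 0 h. Its signal was near the top of the array's range at 4 h, the groups did not overlap, and it rose by 1.52 ± 0.11 (adjusted p = 8.6e-11). G0S2, an inhibitor of adipose triglyceride lipase, averaged 10.16 ± 0.42 at 4 h and 7.81 ± 0.68 at 0 h, and the acyl-CoA synthetase ACSL5 9.25 ± 0.36 at 4 h and 8.31 ± 0.26 at 0 h. PLIN3, another droplet coat protein, fell by 1.14 (SE 0.18). GPAM, the enzyme that starts glycerolipid synthesis, was outside that list and fell by 1.52 (SE 0.27). MID1IP1, an activator of acetyl-CoA carboxylase, fell by 0.95 (SE 0.15).

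Of 17 prostaglandin genes 3 rose and 1 fell, against 10.1% and 13.1% of all genes. PTGS2, the inducible cyclooxygenase, read 5.25, 6.15, 4.63, 4.07 and 4.27 at 4 h and 3.97, 4.06, 3.94, 4.61 and 4.12 at 0 h. Replicate 2 at 4 h was the highest, 6 of the 10 values were near background, and the difference of 0.74 ± 0.35 did not pass (adjusted p = 0.16). PLA2G7, which inactivates platelet-activating factor, averaged 9.01 ± 0.80 at 4 h and 6.71 ± 0.60 at 0 h. PTGER4, a prostaglandin E2 receptor, rose by 1.25 ± 0.24, and HPGD, the enzyme that breaks prostaglandins down, fell by 1.10 (SE 0.25) in 1 of 2 probe sets.

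Hypoxia and glycolysis genes passed the test in both directions, and the mitochondrial energy genes that passed were lower at 4 h. Of 35 hypoxia and glycolysis genes 5 rose and 6 fell, against 10.1% and 13.1% of all genes, and 2 fell in the fit to the 10 arrays alone. The glucose transporter SLC2A1 rose by 1.27 ± 0.13, the hypoxia-responsive NDRG1 by 1.58 ± 0.23 and PFKFB3, which sets the flux through phosphofructokinase, by 1.26 ± 0.23 in 1 of 3 probe sets. TBC1D4, which governs the movement of insulin-regulated glucose transporters, was outside that list and fell by 1.04 (SE 0.16) in 1 of 2 probe sets. Of 52 oxidative phosphorylation subunits 10 fell and none rose, against 13.1% and 10.1% of all genes, with a median of -0.14. At an unadjusted p under 0.05, 24 fell and 0 rose, and 9 fell in the fit to the 10 arrays alone. The shares of all genes above are at an adjusted p and are no background for these counts. When 1 array was left out, the falls past the adjusted test ran from 5 to 15. There were 5 without 0 h replicate 2 or 0 h replicate 5, and 15 without 0 h replicate 1. With array weights 6 fell, and 1 in the fit to the 10 arrays alone.

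Of 37 TCA cycle and fatty acid oxidation genes 11 fell and none rose (0 also at an unadjusted p under 0.05). Of all genes, 13.1% fell and 10.1% rose. HADH, an enzyme of fatty acid oxidation, fell by 0.60 (SE 0.12). The count of falls was 7 with array weights, 7 without 0 h replicate 2, 4 h replicate 2 or 4 h replicate 4, 6 without 0 h replicate 1, 4 without 0 h replicate 5, and 1 in the fit to the 10 arrays alone. Of 45 RNA polymerase I and ribosome biogenesis genes 10 rose and 3 fell, and 5 rose and 1 fell in the fit to the 10 arrays alone. The polymerase I subunit POLR1E averaged 9.42 ± 0.22 at 4 h and 10.60 ± 0.12 at 0 h in 4 of 4 probe sets (adjusted p = 1.3e-09). Among the falls with non-overlapping groups were also LRRC17, a leucine-rich repeat protein, by 1.95 (SE 0.24), and KCNF1, a potassium channel subunit, by 1.44 (SE 0.21).

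The study also gave PGF2α on day 4, and the difference between the responses was tested as an interaction over the same 30 arrays. It passed for 264 of 24016 probe sets (1.10%) and, among named genes, was positive for 86 (0.939%) and negative for 42 (0.458%). Without day 4, 4 h replicate 2 it passed for 157 probe sets. On day 4 itself 483 of 9162 genes (5.27%) passed at 4 h, but a difference between the 2 counts of calls is not a test of the responses.

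KRT18 had the largest interaction of the named genes. It rose by 4.67 ± 0.29 on day 11 and differed by 0.23 ± 0.29 on day 4, where it averaged 12.60 ± 0.39 at 4 h and 12.37 ± 0.29 at 0 h. The interaction was 4.44 ± 0.40 log2 units (adjusted p = 1.2e-07). GAL rose by 5.95 ± 0.34 on day 11 and by 1.84 ± 0.34 on day 4, an interaction of 4.11 ± 0.49 (adjusted p = 1.2e-05), and SERPINA14 by 4.64 ± 0.46 on day 11 with a difference of 1.47 ± 0.46 on day 4 that did not pass (interaction 3.17 ± 0.64, adjusted p = 0.0091). G0S2 differed by 2.35 ± 0.29 on day 11 and by -0.72 ± 0.29 on day 4 (interaction adjusted p = 8.3e-05). The SELE difference was 2.63 ± 0.31 on day 11 and 0.17 ± 0.31 on day 4 (interaction adjusted p = 0.0021).

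The differences of INHBA, AMIGO2, TNFRSF6B, MMP1, FOSB, CSF1, PLAUR, PLK3, SPSB1, TNFRSF12A, NRG1 and TXNRD1 were also larger on day 11, with interactions between 1.04 (TXNRD1) and 2.94 (AMIGO2). So were those of PLIN2, by 0.81 ± 0.16 (adjusted p = 0.0071), and of RAMP3, by 0.80 ± 0.15 (adjusted p = 0.0049). In the opposite direction, SLCO2B1, an organic anion transporter, differed by -0.53 ± 0.28 on day 11 and by 1.68 ± 0.28 on day 4 (interaction -2.21 ± 0.39, adjusted p = 0.0025). LPL, lipoprotein lipase, differed by -0.40 ± 0.25 on day 11 and by 1.23 ± 0.25 on day 4 (interaction adjusted p = 0.014). BCAT2, an aminotransferase of branched-chain amino acids, differed by -1.01 ± 0.25 on day 11 and by 0.78 ± 0.25 on day 4 (interaction adjusted p = 0.007). FGF2 rose by 2.34 ± 0.36 on day 11 and by 4.47 ± 0.36 on day 4. Its interaction adjusted p was 0.031, and 0.0544 to 0.0656 without any 1 of day 11, 0 h replicates 1, 3 and 4, day 4, 0 h replicates 3, 4 and 5 and day 4, 4 h replicate 2.

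**Figure D4:**
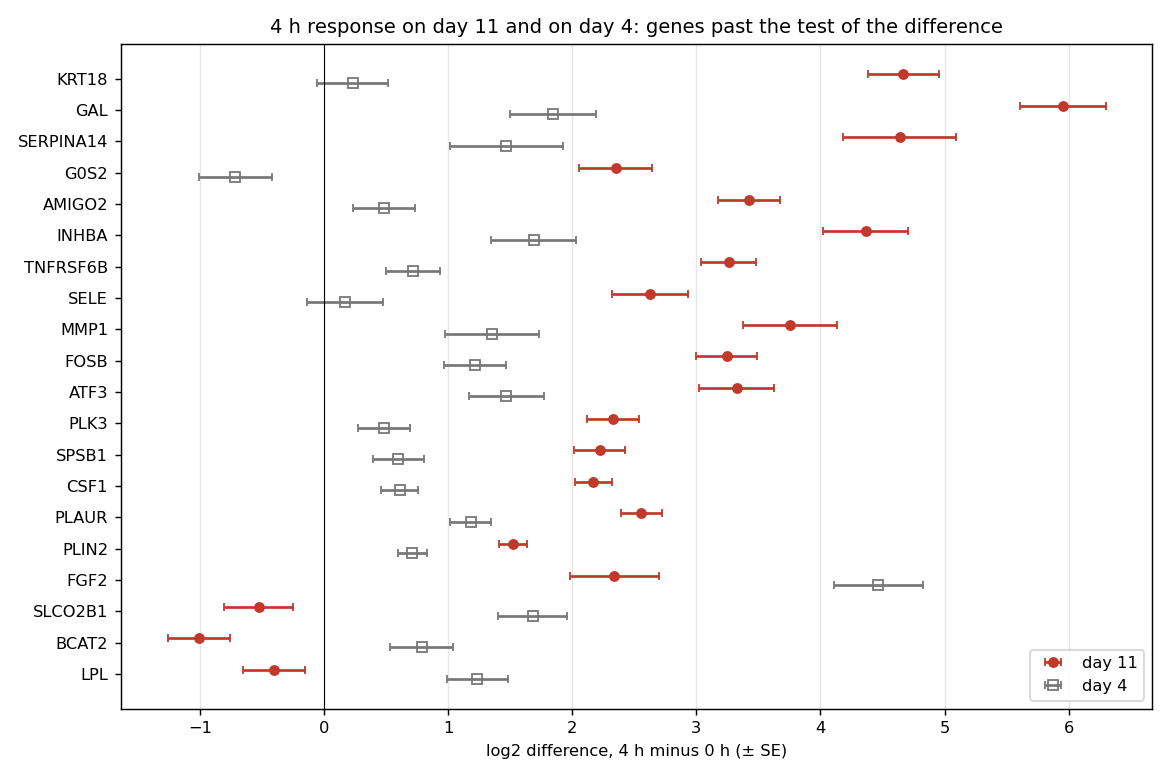
Log2 difference at 4 h against 0 h (x axis, ± SE) on day 11 (filled circles) and on day 4 (open squares) for 20 genes past the interaction test. KRT18 lies at 4.67 on day 11 and 0.23 on day 4, and FGF2, SLCO2B1, BCAT2 and LPL lie farther right on day 4.

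Most chemokine and cytokine genes did not pass the test of the difference between days, nor did most of all genes. The interaction was positive for 0.939% and negative for 0.458% of all genes. Few passes in a list therefore do not show that its response was shared by both days. CCL2 rose by 2.80 ± 0.32 on day 11 and by 2.23 ± 0.32 on day 4 (interaction adjusted p = 0.71), and IL33 by 4.68 ± 0.23 on day 11 and by 3.77 ± 0.23 on day 4 (interaction adjusted p = 0.2). In the cytokine list 2 of 25 genes passed, both larger on day 11. The interaction was 1.56 for CSF1 (adjusted p = 8.4e-05) and 1.13 for IL18, an interleukin 1 family cytokine (adjusted p = 0.038), which was named after its values were seen. None of the 23 chemokines passed the interaction in limma, and 5 did at an unadjusted p under 0.05. None of the 25 interferon-stimulated genes passed, but 16 did at an unadjusted p under 0.05, all larger on day 11. The share of all genes at that unadjusted threshold was not counted, and the day 11 rise of these genes leaned on single glands. The median difference of the list was 0.75 on day 11, or 0.41 without 4 h replicate 4, and -0.34 on day 4. PTHLH fell by 1.92 on day 11 and by 1.92 on day 4, and POLR1E by 1.18 on day 11 and by 1.23 on day 4.

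The 24 h glands of day 11 came from other heifers, and the 24 h comparison shares its 4 h arrays with the comparison above, so the levels are given side by side at 0, 4 and 24 h. Between 24 h and 4 h, 5570 of 24016 probe sets (23.2%) passed the test. FOSB averaged 5.31, 8.55 and 5.46 log2 units, SELE 4.13, 6.76 and 4.47, and FGF2 5.02, 7.36 and 4.19. KRT18 averaged 7.27, 11.94 and 8.76. These 4 genes had their highest mean at 4 h and were lower at 24 h than at 4 h (adjusted p between 3e-10 and 1.5e-06).

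GAL averaged 3.97, 9.92 and 10.56, ATF3 6.77, 10.10 and 10.12, and PLIN2 12.24, 13.77 and 13.75. Their 24 h and 4 h levels were not shown to differ (adjusted p = 0.21, 0.97 and 0.95). Some genes that had not passed at 4 h were far from their 4 h level at 24 h. HSD3B1 and STAR were already lower in every 4 h gland than in every 0 h gland. HSD3B1 averaged 13.71, 13.40 and 11.39, STAR 13.60, 13.35 and 12.15, JUN 10.52, 10.62 and 11.72, and HMOX1 9.06, 9.09 and 11.96 (24 h against 4 h, adjusted p between 1.3e-10 and 8.1e-05). VEGFA and PTHLH were lower again, VEGFA at 11.26, 10.48 and 8.12 and PTHLH at 10.94, 9.02 and 7.27. The macrophage list had a median of 0.37 at 4 h, or 0.046 without 4 h replicate 4, and 1.32 at 24 h relative to 0 h. The cholesterol list had a median of -0.02 at 4 h and -0.94 at 24 h.

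**Figure D5:**
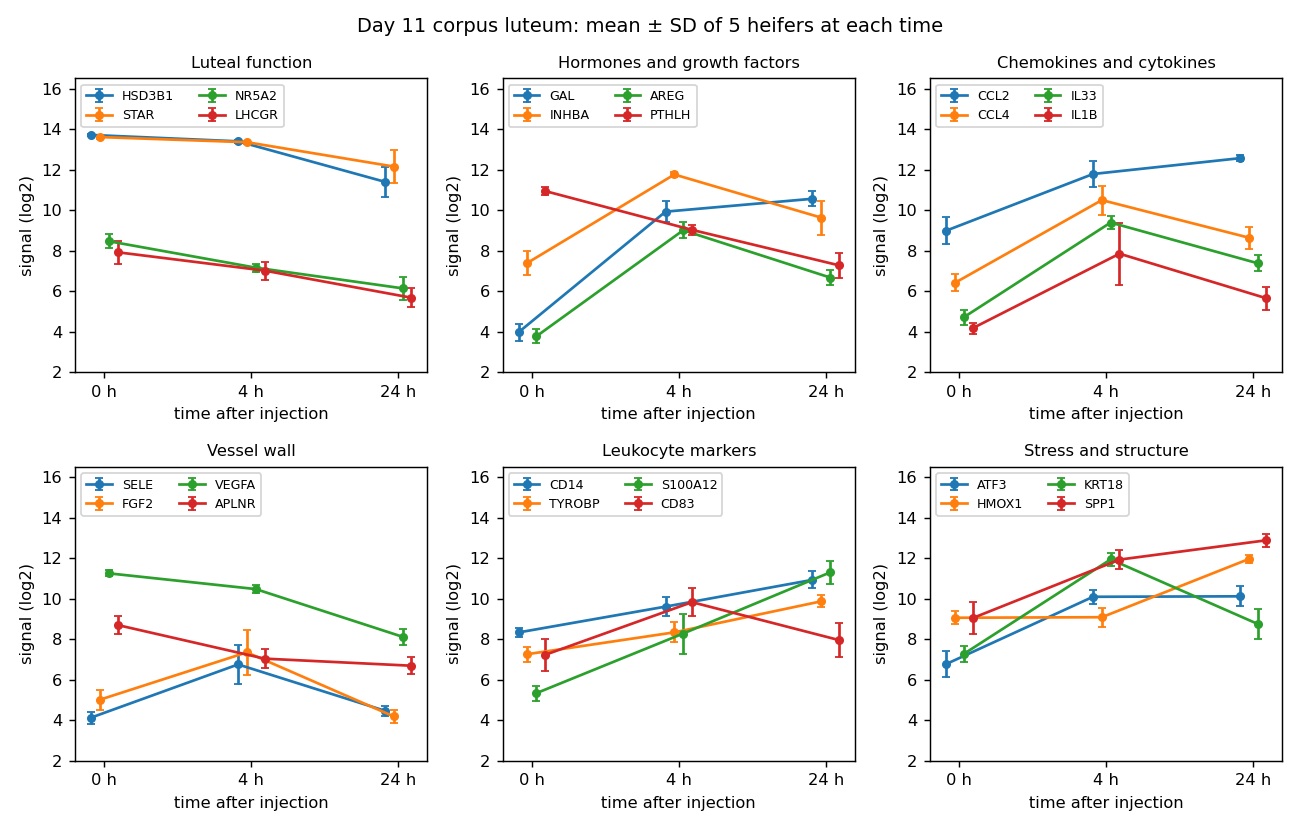
Mean signal (log2, y axis; bars ± SD of 5 heifers) at 0, 4 and 24 h on day 11 for 24 genes in 6 panels. INHBA, KRT18, SELE and FGF2 are highest at 4 h, HSD3B1 and STAR are lower at 24 h than at 4 h, and HMOX1 is higher at 24 h than at 4 h.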

How the data were processed

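The values are log2 signals per probe set of Affymetrix Bovine Genome Arrays, made by the authors with RMA per the submitters' processing notes (version not given in the sources used here). RMA subtracts background, normalizes arrays to each other and summarises the probes of a set, which compresses differences near background. Per the labels, total RNA was labelled as biotin cRNA. The deposited log2 values were used as they stand. Of 24128 probe sets, 112 controls were left out. The platform annotation, which can be old, gave 13292 probe sets 1 symbol, 86 several and listed no gene for 10638. A gene is represented by whichever of its probe sets was brightest on average over the 30 arrays, which matters for 2913 of 9162 genes, and "1 of 2 probe sets" counts those past the test.

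All 30 arrays (6 groups of 5) were fitted in limma 3.58.1 (R 4.3.3) with a mean per group, no block and default empirical Bayes moderation (24 residual degrees of freedom, 28.2 in all). P-values were adjusted by the Benjamini-Hochberg method over 24016 probe sets and called at 0.05. The share of all genes at an unadjusted p under 0.05 was not counted, so counts at that threshold have no background here. Means are ± SD and differences ± SE. Heifers are the replicates, and the 5 arrays per group limit the precision.

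The members, the 49 gene lists and the rule for named genes were chosen with earlier results of these data known. The rule takes the 15 largest rises and falls without overlap, the 8 largest each way with a mean of at least 10, up to 5 called members per list, the 10 largest stage differences each way and a panel of 37 genes. The text names 143 of the 240 genes it gives. Alternatives were quantile normalization, median centring, leaving out the dimmest 30%, array weights, trended and robust moderation, a replicate block, the arrays of a contrast alone, the mean of a gene's probe sets, stricter thresholds and leaving out each array. Batches and scan dates are not given in the sources used here, and no genome positions or sequences were used.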

Additional observations from a re-analysis of the deposited data

Results flagged for a closer look

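One gland lay apart from the other 4 of its group for 17 of the 286 sets of 5 values tested, where chance alone flags about 1 in 20 (Dixon's ratio of the gap to the range). Replicate 1 at 4 h was the lowest for PTGFR at 10.44 (others 10.96 to 11.14), INHBA at 11.56 (others 11.78 to 11.83) and PLK3 at 7.54 (others 8.38 to 8.56). Replicate 2 at 4 h was the highest for FOSB at 9.24 (others 8.24 to 8.47) and CCND3 at 9.85 (others 8.83 to 9.10). Replicate 2 at 4 h was the lowest for FGF2 at 5.42 (others 7.46 to 8.17). Replicate 3 at 4 h was the highest for VEGFA at 10.80 (others 10.32 to 10.43). Replicate 3 at 4 h was the lowest for KCNF1 at 5.59 (others 6.17 to 6.29). Replicate 4 at 4 h was the lowest for AREG at 8.32 (others 9.03 to 9.31) and TBC1D4 at 9.58 (others 10.27 to 10.54). Replicate 4 at 0 h was the highest for LHCGR at 8.92 (others 7.48 to 7.88), PECAM1 at 8.70 (others 8.24 to 8.34) and PTGS2 at 4.61 (others 3.94 to 4.12). Replicate 4 at 0 h was the lowest for CCND1 at 6.75 (others 7.09 to 7.22) and BCAT2 at 10.01 (others 10.81 to 11.12). Replicate 5 at 0 h was the highest for IER3 at 10.56 (others 8.82 to 9.22) and CXCL8 at 5.92 (others 3.99 to 4.54).

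The 4 h response differed between day 11 and day 4 for 29 of the 143 genes named, by limma's interaction test. The rule for named genes took the largest stage differences each way by this same test, so this count does not hold for genes at large. Of all genes, the interaction was positive for 0.939% and negative for 0.458%. The values below are the day 11 minus the day 4 response in log2 units, each with its adjusted p. For 22 genes the call held under every alternative fit checked, which did not include the mean of a gene's probe sets. Larger on day 11 were KRT18 (4.44, 1.2e-07), GAL (4.11, 1.2e-05), SERPINA14 (3.17, 0.0091), G0S2 (3.06, 8.3e-05), AMIGO2 (2.94, 1.2e-05), INHBA (2.67, 0.0029), TNFRSF6B (2.54, 1.4e-05), SELE (2.46, 0.0021) and MMP1 (2.41, 0.019). Next came FOSB (2.03, 0.0016), PLK3 (1.84, 0.001), SPSB1 (1.62, 0.0028), CSF1 (1.56, 8.4e-05), PLAUR (1.37, 0.0015), TNFRSF12A (1.25, 0.0011), NRG1 (1.17, 0.0072), TXNRD1 (1.04, 0.019), PLIN2 (0.81, 0.0071) and RAMP3 (0.80, 0.0049). Negative differences were found for SLCO2B1 (-2.21, 0.0025), LPL (-1.64, 0.014) and BCAT2 (-1.80, 0.007). The call did not hold under at least 1 alternative for ATF3 (1.86, 0.025), FOSL1 (1.20, 0.031), BMPR1A (-0.70, 0.043), PIM1 (1.40, 0.028), FGF2 (-2.13, 0.031), CNN1 (1.62, 0.039) and CFLAR (1.03, 0.038), and leaving out single arrays gave adjusted p-values of 0.0504 to 0.0964 where it ended the call.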

How the results depend on the processing

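The number of probe sets that differed between 4 h and 0 h, 4409 with all arrays, was 2520 in a fit to the 10 arrays alone, 2599 at an adjusted p under 0.01 and 659 with a minimum change of 2-fold, and lay between 3805 and 4483 when 1 array was left out. The other alternatives gave 3581 to 4704. The test of the stage difference, 264 probe sets, gave 157 to 356 when 1 array was left out, the lowest without day 4, 4 h replicate 2, and 182 to 386 otherwise. Between 24 h and 4 h the count of 5570 lay between 4992 and 5417 when 1 array was left out.

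Of the 143 genes named, 130 passed the test, 124 of these under every alternative and 6 not under at least 1 (PTGFR, LHCGR, FOS, VEGFA, S100A8 and MX2, with values in the report). The rule for named genes took mainly genes that had passed with large changes, so these counts do not hold for genes at large. No gene that passed changed direction. Among genes that did not pass, JUN was -0.031 with array weights and ran from -0.0035 to 0.213 when 1 array was left out, OXT from -0.016 to 0.064 and HMOX1 from -0.10 to 0.213. The cause was not tested.

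Replicate numbers are shared between groups in the labels, which do not say that they pair animals. Same-numbered 4 h and 0 h glands deviated together with correlations of 0.063 to 0.233, not all above 0.1, and all 5 arrays correlated best with their own number, a hint from the data and not the design. With the replicate number as a block 4704 probe sets differed at 4 h, 335 in the stage difference and 5827 between 24 h and 4 h, and among the named genes NR4A1 passed in addition (adjusted p = 0.0498, and 0.0039 to 0.25 over its alternatives).

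Signals near background limit the low genes. GAL, AREG, IL1B, SELE, MMP1, SERPINA14, BMP2, NRG1, MX2 and PTGS2 averaged under 4.48 at 0 h, so their folds depend on the floor that RMA sets. The brightest genes, among them STAR, HSD3B1 and OXT, lay close to the top of the range, 14.35, where changes can be compressed.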

Other observations

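Other gene groups are set here against the 10.1% of all genes that rose and the 13.1% that fell at 4 h. Of 44 cytosolic ribosomal protein genes 1 rose and none fell in limma (0 also at an unadjusted p under 0.05), with a median of -0.01 and a range of -0.10 to 0.29, where the middle 90% of all genes lay between -0.55 and 0.72. None of 10 genes of MHC class II presentation passed in either direction, also at an unadjusted p under 0.05. Of 33 proteasome and ubiquitin genes 4 rose and none fell (8 and 0 at an unadjusted p under 0.05), a share of rises near that of all genes, and 1 rose in the fit to the 10 arrays alone. Of 37 lysosome and autophagy genes 3 rose and 2 fell. GABARAPL1, which helps to form autophagosomes, read 11.93, 11.69, 12.06, 12.28 and 12.33 log2 units at 4 h and 11.16, 10.76, 10.60, 11.21 and 11.25 at 0 h. The groups did not overlap, and it rose by 1.06 ± 0.15 (adjusted p = 6.3e-06) in both probe sets.

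Collagens and matrix glycoproteins had 1 of 31 genes higher and 4 lower. The number lower was 7 without 4 h replicate 4, 2 without 0 h replicate 2, 0 h replicate 3 or 4 h replicate 1, and 1 in the fit to the 10 arrays alone. Of 14 genes of mRNA decay 4 rose and 1 fell, and of 8 follicular granulosa and theca genes 1 fell and none rose (0 also at an unadjusted p under 0.05).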
